A study of Homo sapiens with 12 samples.

Results

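The human keratin genes lie in 2 clusters, type II keratins with KRT18 on chromosome 12 and type I keratins on chromosome 17, and their chromatin was read here in RWPE-1 prostate epithelial cells. The members were the peaks of 5 histone marks that touched chr12:52550000-53350000 (800 kb) or chr17:38800000-39785000 (985 kb) of hg19, an interval rule that used no peak value. It took 420 of 457217 peaks, 232 in the type II cluster and 188 in the type I cluster. In the clusters 54 keratin genes were followed, 27 in each.

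RWPE-1 is a non-tumour line from normal human prostate epithelium, immortalised with HPV18, and all 12 libraries came from it at a passage below 20. The cells grew in a keratinocyte serum-free medium with pituitary extract at 0.05 mg/ml and EGF at 5 ng/ml, and no other condition was tested, so every comparison below is between marks or between genes within 1 line. ChIP-seq was done in duplicate for H3K4me3, H3K27ac, H3K4me1, H3K36me3 and H3K27me3, and the peak list used for each mark combined both replicates. There is therefore no error between replicates for any value, no test was run and the read depth is unknown. The input library and the DNase library were not used here.

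Keratins are the intermediate filament proteins of epithelia, and each filament pairs a type I with a type II chain. KRT5 with KRT14 is the pair of basal cells in stratified epithelia and in prostate, KRT8 with KRT18 the pair of simple and luminal epithelia, and KRT6A, KRT6B, KRT6C, KRT16 and KRT17 are keratins of wounded or hyperproliferating epithelium. Other members belong to differentiated epidermis (KRT1, KRT10), to the inner root sheath of the hair follicle (KRT71 to KRT74, KRT25 to KRT28) or to the hair shaft and nail (KRT81 to KRT86, KRT31 to KRT40). H3K4me3 marks the starts of active genes, H3K27ac active starts and enhancers, H3K4me1 enhancers more widely, H3K36me3 the bodies of genes being transcribed, and H3K27me3 chromatin silenced by Polycomb.

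Only 8 genes have a position of their own here: KRT5, KRT14 and KRT17 each as a gene span, KRT6A to KRT6C as 1 span of 50 kb, and KRT8 with KRT18 as 1 span of 57 kb. The other 46 were placed in the stretches between these spans by gene order in RefSeq, so their peaks are given by stretch and not by gene.

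The upstream sequences of KRT5 and of KRT71, its neighbour in gene order, are shown because KRT5 lay almost wholly in active marks and KRT71 opened a stretch that held no H3K36me3 peak and all H3K27me3 peaks of its cluster. The end of that stretch next to KRT5 was itself acetylated and free of H3K27me3 peaks, so the sequences show neighbours and not an active and a silenced gene. Both run 5′ to 3′ over the 250 bases before the RefSeq start (GRCh38.p14, minus strand), at chr12:52520395-52520644 for KRT5 and chr12:52553146-52553395 for KRT71, and capitals mark TATAAA, the core of the classical promoter box, and the E-box CANNTG.
KRT5: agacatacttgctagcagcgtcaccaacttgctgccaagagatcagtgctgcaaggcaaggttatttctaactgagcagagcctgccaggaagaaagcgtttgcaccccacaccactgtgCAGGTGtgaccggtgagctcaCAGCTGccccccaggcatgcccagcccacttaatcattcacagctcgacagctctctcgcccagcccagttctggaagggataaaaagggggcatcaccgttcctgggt
KRT71: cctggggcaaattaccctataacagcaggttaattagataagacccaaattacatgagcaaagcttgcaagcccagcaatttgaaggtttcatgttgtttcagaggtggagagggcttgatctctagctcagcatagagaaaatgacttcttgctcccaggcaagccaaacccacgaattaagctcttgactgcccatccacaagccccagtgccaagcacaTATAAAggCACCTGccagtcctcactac
The KRT5 sequence held 2 CANNTG matches and no TATAAA, while the KRT71 sequence held 1 of each. RefSeq entries matched 34 of the 54 genes, in 38 entries that run from 250 bases before to 50 after the start. There was none for KRT14, KRT16, KRT17, KRT18 or KRT6A to KRT6C, so the shares below leave out most genes with a position here. Searched on both strands of those 300 bases, TATAAA stood in 21 of 38 keratin entries (55.3%), beside 11.5% of all 35116 entries. CANNTG stood in 33 of 38 (86.8%) beside 68.7%, GGGCGG (a GC box) in 6 of 38 (15.8%) beside 45.0%, and TGANTCA (an AP-1 motif) in 0 of 38 beside 7.71%. A TATAAA match was thus more frequent and a GC box less frequent among keratin entries than among all entries, and KRT5 held neither; these are letter matches, not mapped sites.

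Both clusters were richer in acetylation and H3K4me1 than the genome as a whole, and for H3K36me3 and H3K27me3 the type II cluster lay above the genome's share and the type I cluster below it. In the type II cluster H3K27ac peaks covered 17.4% of the bases, 4.68 times the 3.72% over chromosomes 1 to 22 and X, and H3K4me1 covered 18.3%, 3.02 times its 6.04%. In the type I cluster H3K27ac covered 10.6% (2.84 times) and H3K4me1 11.0% (1.83 times). H3K36me3 covered 4.89% of the type II cluster, 1.36 times its 3.60% over all chromosomes, and 1.49% of the type I cluster, 0.415 times. H3K27me3 covered 4.03% of the type II cluster, 1.69 times its 2.39%, and 1.45% of the type I cluster, 0.604 times. H3K4me3 covered 2.94% and 2.39%, 1.93 and 1.57 times its 1.52%.

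Chromosome 17 itself is dense in peaks, which changes this reading for the type I keratins. Its own cover was 7.51% for H3K27ac, 13.3% for H3K4me1, 3.06% for H3K4me3, 7.72% for H3K36me3 and 3.99% for H3K27me3. The type I cluster lay above its chromosome in H3K27ac and below it in the other 4 marks. On chromosome 12, where the shares were 4.24% for H3K27ac, 6.66% for H3K4me1, 1.72% for H3K4me3, 4.07% for H3K36me3 and 2.32% for H3K27me3, the type II cluster lay above in all 5. Against all windows of their own length over the chromosomes, both clusters passed the upper quartile for H3K27ac (5.36% over 3782 windows of 800 kb, 5.39% over 3068 windows of 985 kb). They also passed it for H3K4me1 (8.79% and 8.81%) and for H3K4me3 (1.99% and 2.06%). The type II cluster passed it for H3K36me3 (4.71%) and H3K27me3 (2.59%) too, and the type I cluster did not. For H3K36me3 and H3K27me3 both clusters lay above the median window, at 1.01% and 0.647% for the type II length and 1.20% and 0.708% for the type I length, so the type I cluster was low beside the genome's mean and not beside its median window.

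**Figure D1:**
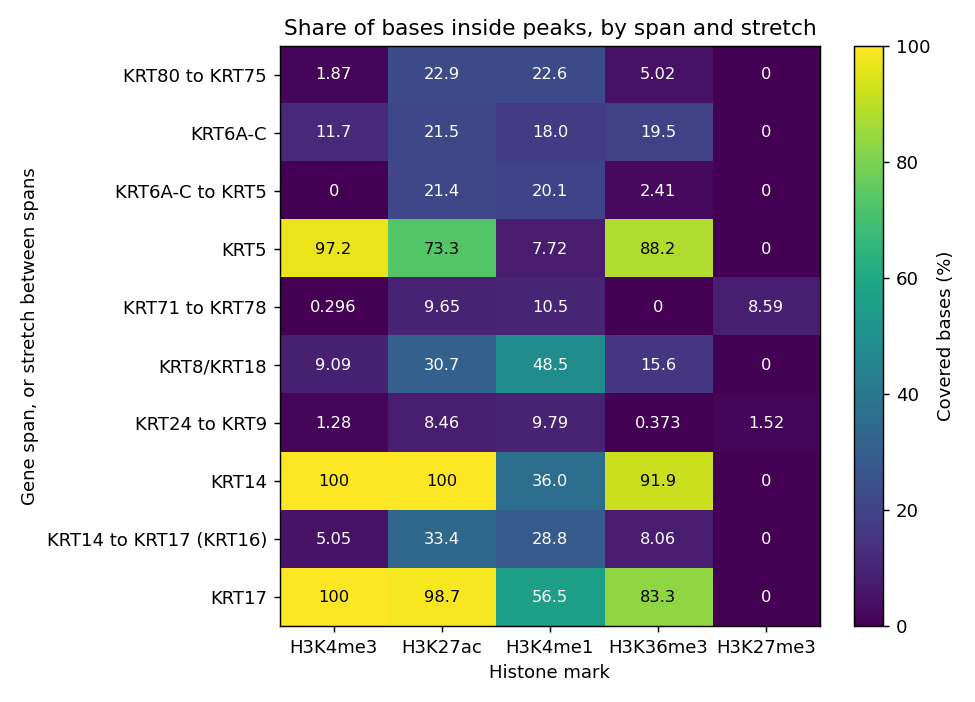
Share of bases inside peaks (%, colour and printed value) of each histone mark (columns) at each keratin gene span or stretch between spans (rows), from 1 pooled list per mark. KRT5, KRT14 and KRT17 have H3K4me3 over 97.2% to 100% and H3K36me3 over 83.3% to 91.9% of their length. Their rows are single gene spans, while the other rows hold sequence between genes, so shares cannot be set against each other. H3K27me3 is at 0 in all rows except KRT71 to KRT78 (8.59%) and KRT24 to KRT9 (1.52%).

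KRT5, KRT14 and KRT17, the basal keratins with a span, were each covered nearly from end to end by 1 H3K4me3 peak, and most of the same bases also carried H3K36me3 and H3K27ac. None of the 3 genes had an H3K27me3 peak. KRT5 and KRT14, which lie on different chromosomes and pair in the same filament, thus carried the same combination. KRT17, named above also as a keratin of wounded epithelium, carried it as well. KRT15, another basal keratin, lies in the stretch below KRT14 without a position of its own, so its marks could not be read.

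At KRT5 (chr12:52908359-52914471) the H3K4me3 peak ran from 52908529 to 52914895. It was 6367 bases wide, rank 84 of 28639 by width, had a score of 3100 and covered 97.2% of the gene. The score is the peak caller's confidence value for each peak, with a lowest value of 50, and is read here as a scaled log10 of its p-value, and 13.9% of the H3K4me3 list stood at 3100 or above, so equal scores of 3100 show a ceiling and not equal signal. H3K36me3 covered 88.2% in 2 peaks, the larger of 4674 bases with a score of 2447, the highest of all 22 H3K36me3 peaks in the type II cluster. H3K27ac covered 73.3%: its peak of 10807 bases started 1633 bases inside the lower end of the gene and ran 6327 bases past the upper end, which is the start of this minus-strand gene. H3K4me1 was almost absent from the gene itself, with 1 peak of 472 bases and a score of 51.2 covering 7.72%, just over the lowest score in the list.

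At KRT14 (chr17:39738531-39743147) the H3K4me3 peak of 5035 bases, rank 301 by width and score 3100, covered the whole gene. H3K27ac covered it wholly too, in a peak of 8290 bases that went 3525 bases beyond the upper end and was the widest acetylated peak of the type I cluster. H3K36me3 covered 91.9% in 1 peak of 4267 bases (score 1389). H3K4me1 lay inside the gene as 1 peak of 1661 bases with a score of 187.8.

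KRT17 (chr17:39775692-39780882) had an H3K4me3 peak of 5725 bases, rank 156 by width and score 3100, the widest of the type I cluster, again over the whole gene. H3K27ac covered 98.7% in 2 peaks, of which the larger, 7396 bases, passed the upper end by 3131 bases. H3K36me3 covered 83.3%, in peaks of 981 and 3357 bases, the second with the highest H3K36me3 score of the type I cluster (1437). H3K4me1 covered 56.5%, the largest share of the 3 genes. The H3K4me3 peaks ended 424, 275 and 149 bases past the upper ends of KRT5, KRT14 and KRT17, while acetylation went on for kilobases.

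**Figure D2:**
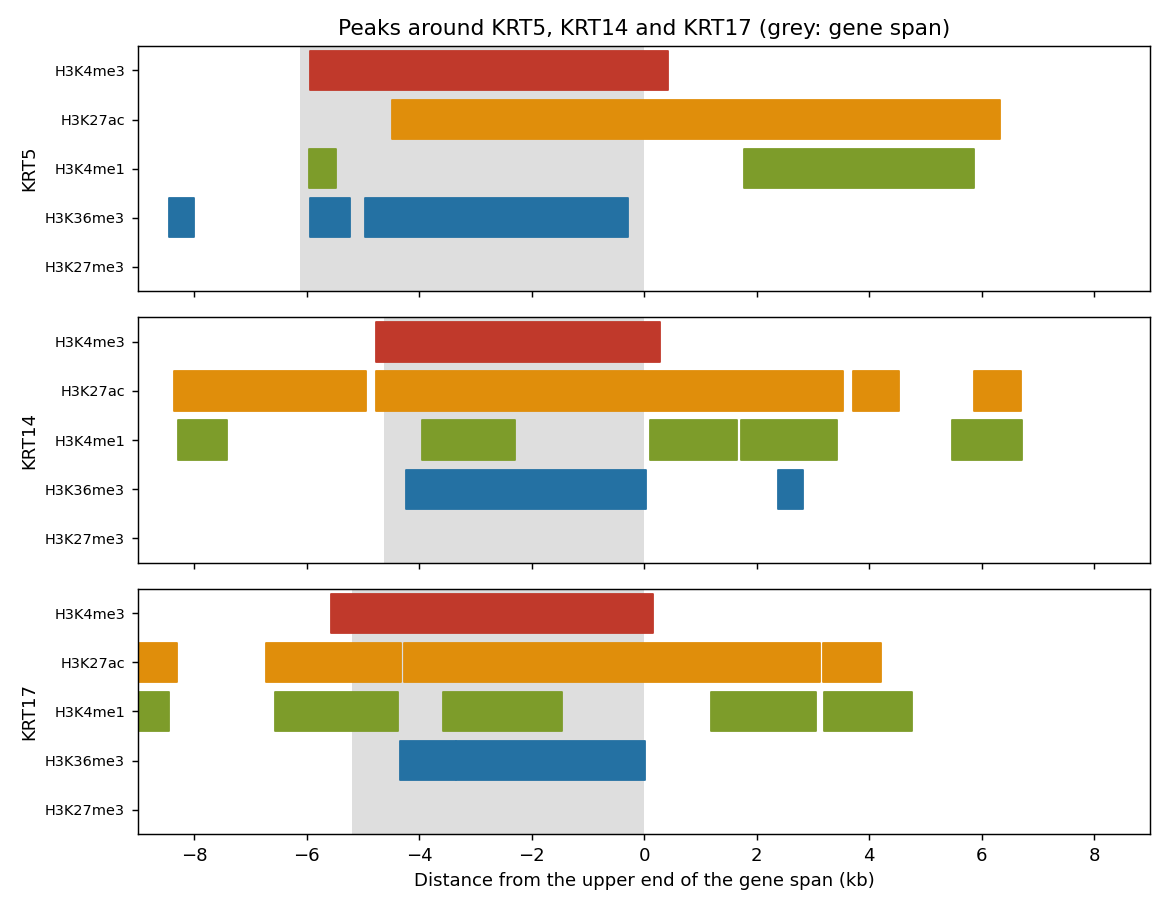
Peaks of the 5 marks (rows, 1 pooled list each) around KRT5, KRT14 and KRT17, by distance in kb from the upper end of the gene span (grey). H3K4me3 stops within 424 bases of that end in each panel, the main H3K27ac peak runs 3131 to 6327 bases beyond it, the main H3K36me3 peak ends close to it and H3K27me3 has no peak.

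Bases under both H3K4me3 and H3K36me3 made up 88.1% of KRT5, 91.9% of KRT14 and 83.3% of KRT17. Over the genome the 2 marks shared 2.96 Mb, or 0.0975% of the bases of the chromosomes and 6.40% of all H3K4me3 bases. The shares at the genes are of gene bases, so the 6.40% is not a like measure. With H3K27ac as a further condition the share of the gene was 68.4%, 91.9% and 82.0%. Bases under all 3 marks made up 5.89% of the KRT6A-C span and 2.20% of the KRT8/KRT18 span, but those spans hold sequence between genes, so their shares cannot be set against single genes.

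A minority of the H3K4me3 peaks of such width had H3K36me3 over most of their bases, though a larger share than in the whole list. The list held 302 H3K4me3 peaks of at least 5035 bases, the width at KRT14 (1.06% of the list, a limit set from these genes), with a median of 9.60% of their bases under H3K36me3. Of them 55 (18.2%) were covered over at least 50%, beside 6.34% of the whole H3K4me3 list. The peaks of KRT5 (84.6%), KRT14 (84.8%) and KRT17 (75.8%) were among these 55. Whether the short length of these genes has a part in this was not tested.

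**Figure D3:**
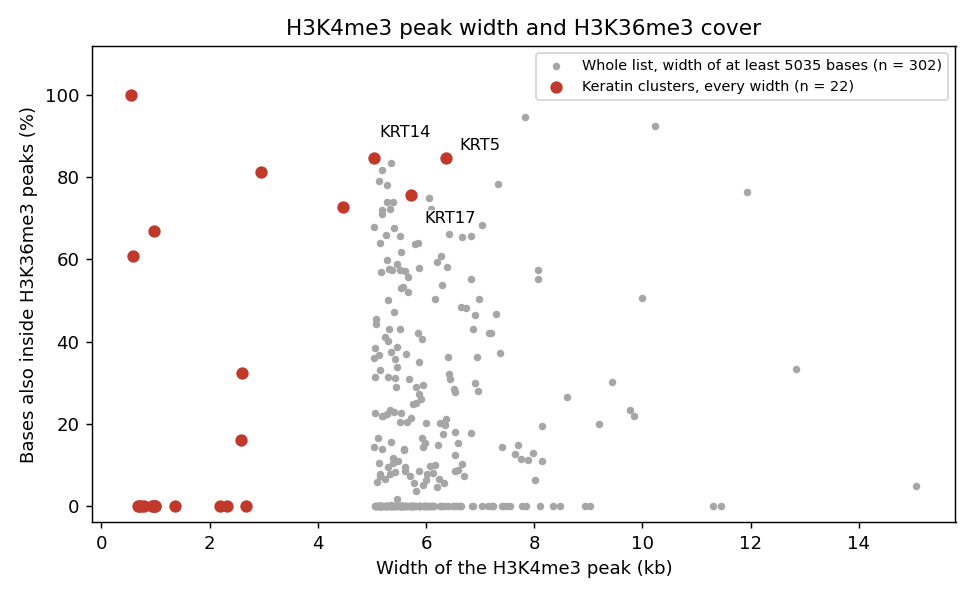
Width of each H3K4me3 peak (kb) against the share of its bases also inside H3K36me3 peaks (%), for the 22 peaks of the keratin clusters (red) and all 302 peaks of at least 5035 bases (grey). KRT5, KRT14 and KRT17 lie at 75.8% to 84.8%, in the upper part of a cloud whose median is 9.60%.

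The stress keratins KRT6A, KRT6B and KRT6C, near-identical genes that lie side by side below KRT5, were not marked alike. Joined over gaps of up to 5 kb, H3K4me3 and H3K36me3 peaks fell into 3 groups within their span, the number of genes there, and in gene order these would be KRT6B, KRT6C and KRT6A; the order alone links them. The group nearest to KRT5, chr12:52881086-52887411, had the highest values. Its H3K4me3 covered 55.4% of 6.33 kb with a highest score of 2657, its H3K36me3 91.2% with a score of 2270, and its H3K27ac 65.5%, with a peak of 8065 bases at a score of 3100.

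The lowest group, chr12:52840898-52846061, held 2 H3K4me3 peaks with scores of 61.5 and 92.6, and H3K36me3 over 54.5% with a highest score of 179.5. The middle group, chr12:52864206-52867677, held 1 H3K4me3 peak of 791 bases with a score of 251.6 and H3K36me3 over 33.8% with a highest score of 87.3. H3K27ac covered 24.9% and 30.4% of these groups. The group nearest to KRT5 was thus ahead of both others in the score and cover of H3K4me3, H3K27ac and H3K36me3; the score is not a linear measure of signal. With a minimum score of 100, 2 of the 5 H3K4me3 and 4 of the 9 H3K36me3 peaks of the span are left. Reads from such similar genes may be placed on the wrong copy or dropped by an aligner; what was done with them is not given in the sources used.

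KRT16, the type I stress keratin, is the only keratin gene in the 32.5 kb between KRT14 and KRT17. Apart from the edges of the peaks of its neighbours, that stretch held 1 H3K4me3 peak, chr17:39768233-39769215, of 983 bases and a score of 239.3. An H3K36me3 peak of 2149 bases (score 536.3) ended just below it, and H3K27ac of 2787 bases (score 1056) and H3K4me1 of 2327 bases (score 327.0) lay over it. In H3K4me3, H3K27ac and H3K36me3 these peaks were narrower and lower in score than the main peaks of KRT14 and KRT17 on either side; in H3K4me1 they were not. RefSeq lists 6 KRT16 and 8 KRT17 pseudogenes, 13 of them on chromosome 17, and their part in these values was not tested.

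KRT8 and KRT18, the luminal pair, carried active marks too, in another form: H3K4me3 peaks narrower than those of the basal keratins, H3K36me3 mainly to one side of them, and wide H3K4me1 between the genes. No H3K27me3 peak lay in their span. The 2 H3K4me3 peaks were chr12:53296380-53298959 (2580 bases, score 3038) and chr12:53342066-53344667 (2602 bases, score 3100). By gene order the lower one belongs to the side of KRT8 and the upper one to the side of KRT18.

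H3K36me3 lay mainly below the lower H3K4me3 peak, from 53290998 to 53296077 (5080 bases, score 1654), and mainly above the upper one, from 53343829 to 53347060 (3232 bases, score 1344). KRT8 and KRT18 are transcribed away from each other, KRT8 downward and KRT18 upward in position. H3K36me3 covered 32.2% of the upper H3K4me3 peak and less of the lower one, against 75.8% to 84.8% at KRT5, KRT14 and KRT17. These H3K4me3 peaks were narrower than at KRT17, at rank 4960 and 4844 by width, but wide beside the list's median of 1328 bases. Their scores lie at or near the value where scores pile up, so they cannot be ranked against those of KRT5, KRT14 and KRT17.

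H3K4me1 covered 48.5% of the KRT8/KRT18 span in 16 peaks, the largest share among the spans and stretches of the type II cluster, and H3K27ac 30.7% in 6 peaks. The H3K4me1 peak of highest score in the type II cluster (1647, 4803 bases) overlapped the upper end of the lower H3K4me3 peak. Midway between the genes, H3K27ac of 5038 bases (score 1215) and H3K4me1 of 5051 bases (score 1404) lay over each other at chr12:53317134-53322083 with no H3K4me3. The H3K27ac peak of highest score in the type II cluster (3135) sat over the lower start. In that cluster 6 H3K27ac peaks stood at 3100 or above, where scores pile up, so this is not a ranking by signal.

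The lowest 290 kb of the type II cluster hold KRT80, KRT7 (a simple epithelial keratin) and 7 hair and nail keratins in gene order, and acetylation was high there with few H3K4me3 peaks. H3K27ac covered 22.9% in 34 peaks and H3K4me1 22.6% in 40, with no H3K27me3 peak. Of the 34 acetylated peaks, 31 (91.2%) touched no H3K4me3, beside 72.3% over the whole list, and 25 of these 31 touched H3K4me1 (80.6%), close to the list's 82.0%. The stretch had 2 H3K4me3 peaks, which covered 1.87%, beside 1.52% over all chromosomes. One, chr12:52625694-52630153, was 4460 bases wide with a score of 3100. It lay wholly under H3K27ac and 72.7% under H3K36me3, the form seen at KRT5, KRT14 and KRT17. The widest H3K36me3 peak of the type II cluster (6846 bases, score 2326) lay over and above it. The other, chr12:52702008-52702957, was 950 bases wide with a score of 61.5.

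KRT80, KRT7 and the hair keratins next to them could not be separated by position here. The 34 peaks were not spread evenly: the lowest 100 kb of the cluster had H3K27ac over 43.2% and 51.5% of its 50 kb bins, the latter the highest of the cluster, and the next 3 bins had 11.6%, 10.1% and 1.59%. The widest H3K27ac peak that touched the cluster, 18120 bases and rank 24 of 61195, crossed its lower edge at chr12:52535146-52553265, so it belongs in part to the sequence below the keratins.

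**Figure D4:**
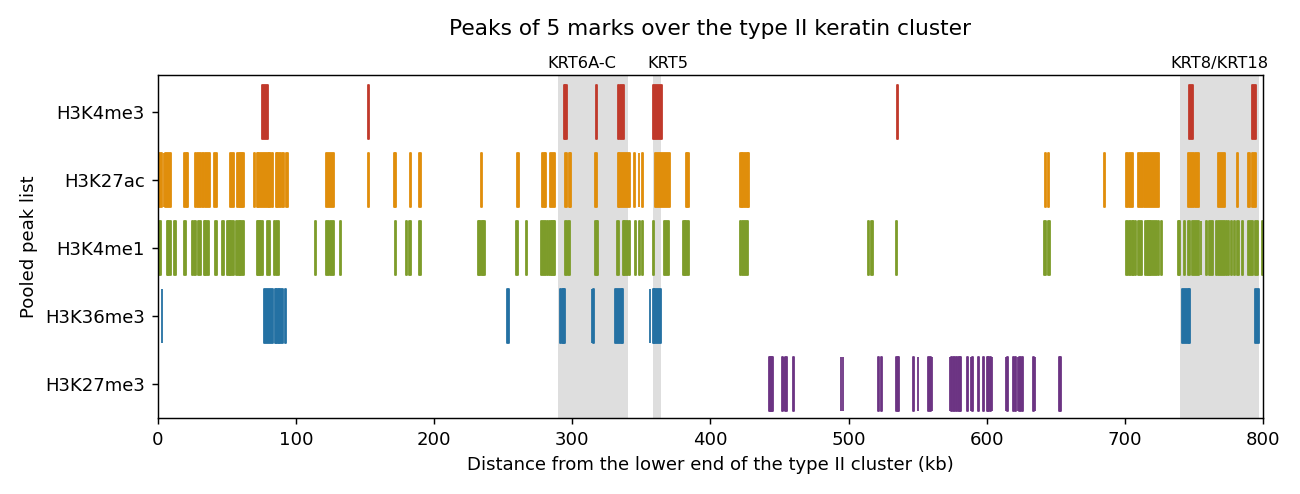
Peaks of the 5 marks (rows, 1 pooled list each) along the type II cluster, by distance in kb from its lower end, with the KRT6A-C, KRT5 and KRT8/KRT18 spans in grey; narrow peaks are drawn at a minimum line width. H3K27me3 lies only between KRT5 and KRT8/KRT18, in a 211 kb reach with 2 H3K27ac peaks and no H3K36me3 peak.

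Between KRT5 and KRT8 lie the inner root sheath keratins KRT71 to KRT74 and 8 keratins of differentiated epithelia, from KRT2 and KRT1, the latter a keratin of the upper epidermis, to KRT78. All 45 H3K27me3 peaks of the type II cluster fell in this stretch, and it held no H3K36me3 peak. They ran from 52992324 to 53203328, 211 kb in which H3K27me3 covered 15.3% of the bases. In the same 211 kb stood 1 H3K4me3 peak, 2 H3K27ac peaks and 5 H3K4me1 peaks, which covered 0.327%, 0.890% and 2.76%.

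The H3K27me3 peaks were short and of modest score: 590 bases and 86.1 at the median, beside 595 bases and 89.1 over the whole list. With a minimum score of 100, 18 of the 45 are left, over 2.33% of the cluster in place of 4.03%. The largest was chr12:53107228-53109952, of 2725 bases and a score of 1146. Joined over gaps of up to 5 kb they made 11 regions, of which the one with most covered bases, chr12:53123041-53154104, had 15 peaks and 10.6 kb under H3K27me3, rank 1235 of 25989. The only H3K4me3 peak within the reach, chr12:53084683-53085371 (689 bases, score 128.7), lay wholly inside H3K27me3 and had no H3K27ac.

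Both ends of the stretch were acetylated. Below the reach, 77.9 kb from KRT5 upward had H3K27ac over 18.6% and H3K4me1 over 16.8%, and above it 86.7 kb toward KRT8 had 22.9% and 23.5%. The acetylated bases of the 77.9 kb include the 6327 bases by which the H3K27ac peak of KRT5 passed the gene. The upper end held an H3K27ac peak of 11101 bases (score 2959, rank 159) and the widest H3K4me1 peak of the cluster (5317 bases), with no H3K4me3. In bins of 50 kb the cluster thus passed from H3K27ac at 27.4% around KRT5 to 0 at 53000000-53049999, and back to 47.3% at 53250000-53299999, while H3K27me3 went from 0 to at most 24.7% and back to 0.

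In the type I cluster, 24 of the 27 keratin genes lie in the 939 kb below KRT14, among them 11 hair and nail keratins, the inner root sheath keratins KRT25 to KRT28, the epidermal KRT10, and KRT13, KRT15, KRT19 and KRT9 as the last before KRT14. Other genes may lie in this stretch too, so its peaks are not assigned to keratin genes. H3K36me3 was nearly missing from it: 3 peaks covered 0.373%, and the longest run without one was 680 kb, 69.0% of the cluster. H3K27ac covered 8.46% in 50 peaks and H3K4me1 9.79% in 79. Of the 50 acetylated peaks 45 touched no H3K4me3 (90.0%, beside 72.3% over the whole list), and 41 of those 45 touched H3K4me1 (91.1%, beside 82.0%).

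H3K27me3 in this cluster was concentrated at the lower end, where KRT24 to KRT28 are the first members in gene order after SMARCE1 and KRT222; which of these genes the peaks lie at is not known here. Of 23 peaks, 19 lay from 38813087 to 38956141, 143 kb with H3K27me3 over 8.05%, 1 H3K27ac peak and no H3K36me3 or H3K4me3 peak. The largest was 2409 bases wide with a score of 498.1, and 7 of the 23 reached a score of 100. Another 3 lay between 39346158 and 39396897, in the middle of the cluster. The last, chr17:39683388-39684606, lay below KRT14.

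That last peak was the only place in the keratin clusters at which H3K27ac, H3K4me3 and H3K27me3 met. It lay inside an H3K4me3 peak, chr17:39681995-39684662, of 2668 bases and a score of 668.8, of which H3K27me3 covered 45.7%, H3K27ac 94.6% and H3K4me1 97.3%. In a pooled list, both marks on the same DNA cannot be told apart from each mark in other cells or alleles.

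The other H3K4me3 peaks of the stretch were of 3 kinds. A pair lay in the lower part, at 38802940-38805250 (score 2784) and 38974251-38976443 (score 3212). The 3212 was the highest H3K4me3 score of the clusters, but it does not rank this peak above those at the 3100 ceiling. The pair were 2311 and 2193 bases wide, with H3K27ac over 100% and 92.8% and neither H3K36me3 nor H3K27me3. SMARCE1 and KRT222, which are not among the 54 genes followed here, precede KRT24 in gene order. Neither peak of the pair is assigned to a gene. A group of 3 within 39359010-39363162, of 667 to 935 bases and scores from 77.3 to 92.2, had no H3K27ac, H3K36me3 or H3K27me3. Another pair lay side by side at 39672868-39675261, with scores of 70.1 and 503.2. An H3K36me3 peak of 2451 bases (score 494.2) covered 66.9% of the lower one, and the widest H3K4me1 peak of the cluster (5512 bases, score 1281) covered 85.0% of the upper one.

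**Figure D5:**
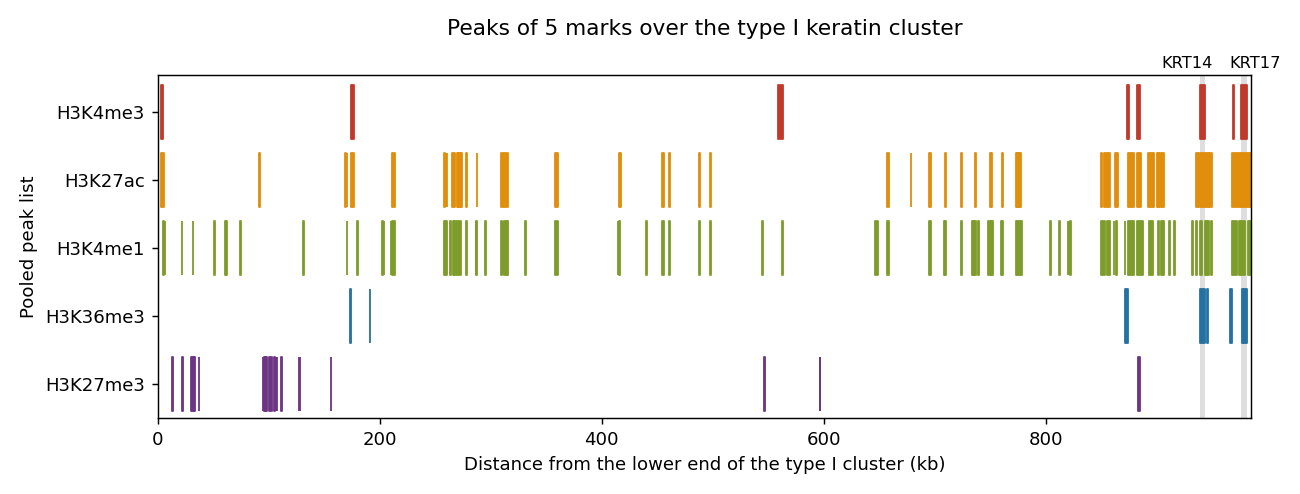
Peaks of the 5 marks (rows, 1 pooled list each) along the type I cluster, by distance in kb from its lower end, with the KRT14 and KRT17 spans in grey; narrow peaks are drawn at a minimum line width. H3K4me3, H3K27ac and H3K36me3 are densest toward KRT14 and KRT17, 19 of 23 H3K27me3 peaks lie in 143 kb near the lower end, and a run of 680 kb has no H3K36me3 peak.

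Most acetylated peaks of the keratin clusters lay away from H3K4me3. Of 119 H3K27ac peaks, 18 (15.1%, Wilson 95% interval 9.79% to 22.7%, counting error only) touched an H3K4me3 peak by at least 1 base, beside 27.7% over the whole list. H3K4me1 was touched by 105 of 119 (88.2%, 81.2% to 92.9%), beside 79.5%. Among the 101 acetylated peaks without H3K4me3, 89 touched H3K4me1 (88.1%), beside 82.0% of such peaks in the whole list. Seen from the other side, 110 of 181 H3K4me1 peaks touched H3K27ac (60.8%, 53.5% to 67.6%), beside 32.2% over the list.

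H3K4me3 peaks of the keratin clusters, not all of them assigned to a keratin gene, met H3K36me3 more often than the list did, as described for KRT5, KRT14 and KRT17. Of 22 H3K4me3 peaks, 10 touched H3K36me3 (45.5%, 26.9% to 65.3%), beside 14.5%, and 8 were covered by it over at least 50% (36.4%, 19.7% to 57.1%), beside 6.34%. From the side of H3K36me3, 12 of 30 peaks touched H3K4me3 (40.0%, 24.6% to 57.7%), beside 3.84%. The 8 comprised the peaks of KRT5, KRT14 and KRT17, 3 peaks of the KRT6A-C span, the wide peak between KRT80 and KRT75 and 1 peak below KRT14.

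With the other marks, H3K4me3 peaks of the keratin clusters were nearer to the list. H3K27ac was touched by 16 of 22 (72.7%, 51.9% to 86.9%), beside 61.7%, and H3K4me1 by 15 of 22 (68.2%, 47.3% to 83.6%), beside 49.6%. H3K27me3 was touched by 2 of 22 (9.09%, 2.53% to 27.8%), beside 15.0%. Of 68 H3K27me3 peaks, 2 touched H3K4me3 (2.94%, 0.810% to 10.1%), beside 5.90%, and of 119 H3K27ac peaks, 1 touched H3K27me3 (0.840%, 0.149% to 4.61%), beside 2.13%. Each interval in this paragraph includes the share of the list. The intervals cover counting error only and take neighbouring peaks as independent, so whether these overlaps differ from the list was not tested.

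Joined over gaps of up to 12500 bases, the H3K27ac peaks made 15 regions in the type II and 19 in the type I cluster, of 28076 in all. The first by covered bases, chr12:52532821-52644062, had 24 peaks over 111 kb with 63.9 kb acetylated, rank 17. The upper end of the type I cluster gave rank 68: chr17:39767861-39847271, from KRT16 across KRT17 and on past the cluster, with 12 peaks and 45.9 kb acetylated. A region from the third KRT6 group across KRT5, chr12:52882814-52934322, took rank 467 with 23.6 kb, and KRT14 with its neighbourhood, chr17:39734789-39749850, took rank 1436 with 13.4 kb. Below KRT14, chr17:39650017-39706746 held 27.5 kb at rank 327, and the region toward KRT8, chr12:53250889-53274601, held 19.5 kb at rank 696. The regions at ranks 17 and 68 cross the edges of the clusters: 47.3 kb and 14.9 kb of their acetylated bases lie inside. Inside the type I cluster the region below KRT14 therefore held more acetylated bases than the one at KRT17.

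For H3K36me3 the region with most covered bases was chr12:52626913-52642689 in the KRT80 to KRT75 stretch, 12.8 kb at rank 1992 of 30367. KRT5 and the third KRT6 group followed with 5.84 and 5.77 kb. In the type I cluster KRT14 led with 4.72 kb and KRT17 followed with 4.34 kb.

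Acetylation did not stop at the edges of the clusters. Over 100 kb below and above the type II cluster, H3K27ac covered 18.6% and 21.5%, and below and above the type I cluster 7.02% and 34.2%. The 7.02% lay under the 7.51% of chromosome 17 but over the 3.72% of all chromosomes. The lowest 50 kb of the type I cluster itself had 5.31%. H3K36me3 rose above KRT18, where it covered 22.1% of 100 kb in 23 peaks, against 4.89% within the cluster. Below the type II cluster it covered 3.98%, near the share within. Against 1.49% within the type I cluster, H3K36me3 covered 0.486% of the 100 kb below it and 2.995% above KRT17, with 1 peak on each side. H3K27me3 covered 8.32% below the type II cluster and 3.65% below the type I cluster, and it had no peak in the 100 kb above either.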

How the data were processed

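Chromatin was measured by ChIP-seq in RWPE-1 cells with 2 replicates per mark. Per the submitters' processing notes the authors used CASAVA 1.8.2, Bowtie2 and MACS 1.4 on hg19; their settings, the control library and the treatment of reads with several matches are not stated there. The authors deposited 1 peak list per mark called on both replicates combined, with a score per peak that is the authors' own value and was used only to describe or rank peaks within its list. Those 5 lists, restricted to chromosomes 1 to 22 and X, were read as 1-based positions. Counts are of peaks that touched an interval by at least 1 base, and cover is the share of bases inside merged peaks, computed with Python 3.11.15, numpy 2.4.6 and pandas 2.3.3. Interval arithmetic was tested on simulated data (813 intervals, 0 mismatches). Neighbouring peaks were joined over gaps of 12500 bases (H3K27ac) or 5 kb (H3K27me3, H3K36me3) and ranked by covered bases. Shares of peaks have Wilson 95% intervals, which cover counting error only.

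Named were the gene spans of the rule, every H3K4me3 peak, the widest and highest-scoring peak of each mark in each cluster and the joined regions with most covered bases; other peaks named were chosen after their values were seen. The members and lists were chosen with earlier results of these data known. Gene spans came from the rule; RefSeq tables (GRCh38.p14) gave gene order and upstream sequence only. Protein sequences were not used here. Alternatives tried were a score of at least 100, peak centres in place of touching, a margin of 5 kb around spans, an overlap of 50% of the smaller peak, and joining gaps of 5 kb (H3K27ac) or 1 and 20 kb (other marks).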

Additional observations from a re-analysis of the deposited data

How the results depend on the processing

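A minimum score of 100 thinned the weaker lists. In the type II cluster it left 7 H3K4me3, 40 H3K27ac, 56 H3K4me1, 13 H3K36me3 and 18 H3K27me3 peaks, with H3K27me3 over 2.33% of the bases; in the type I cluster it left 7 H3K4me3, 46 H3K4me1 and 7 H3K27me3 peaks, with H3K27me3 over 0.732%. Among these stronger peaks 92.9% of H3K4me3 touched H3K27ac (78.0% in the whole lists at that score), 81.0% of H3K27ac touched H3K4me1 (73.4%) and 67.7% of H3K4me1 touched H3K27ac (42.9%). With a joining gap of 5 kb, H3K27ac made 26 regions in the type II cluster, and the leading regions held 24.7 kb (type II) and 16.3 kb (type I). H3K27me3 made 21 regions at 1 kb and 3 at 20 kb in the type II cluster and 15 at 1 kb in the type I cluster, and H3K36me3 made 3 at 20 kb in the type I cluster. Within the type II cluster the leading H3K27me3 region held 5.74 kb at 1 kb and 25.3 kb at 20 kb. The 10 shares under an overlap of 50% of the smaller peak and the 10 cluster counts by peak centre stayed inside the interval of the share or within 1.5 times the count. By centre, the H3K27ac peak of KRT5 lay outside the gene, leaving 0. A margin of 5 kb moved 9 of 40 counts by span or stretch. No paired analysis was possible because each mark has 1 combined list. Without replicate lists or read depth, the spread between replicates of every value here stays unknown, and weak peaks cannot be weighed against noise.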
